A study of Mus musculus with 8 samples.

Results

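The cytosolic ribosomal protein genes were followed in mouse microglia from white and grey matter at 4 and 21 months of age. Members were the rows of the deposited count table whose symbol was Rpl or Rps followed by a number (with an optional a, x or l and a digit) or Rplp0 to Rplp2, and whose counts summed to at least 10 over the 8 libraries. Of 87 such symbols 84 passed, out of 51810 rows, with 49 members of the large (60S) subunit and 35 of the small (40S) subunit. Rpl3l, Rpl10l and Rpl39l, paralogues of Rpl3, Rpl10 and Rpl39, lay under the limit. The GENCODE M21 annotation lists 79 members as protein-coding, while Rpl6l, Rps12l1, Rps3a2, Rps3a3 and Rps4l are annotated there as pseudogenes.

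The series asks, by its title, how aging of white matter relates to microglial diversity. All animals were wild type. The 4 groups were grey matter at 4 months, white matter at 4 months, grey matter at 21 months and white matter at 21 months, each with 2 libraries of polyadenylated RNA sequenced on an Ion Proton. Cells had been freed of myelin on Percoll and selected with magnetic beads for CD11b, which microglia share with other myeloid cells, so neutrophils and monocytes are not removed by the selection. The region label reads corpus callosum for every sample, grey matter included, so titles and the tissue label alone divide white from grey. No source used here says that both libraries of a group are from different mice, so p-values measure the spread between libraries, which may be technical.

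A mouse ribosome is made of ribosomal RNA and these proteins, and its subunits are assembled in the nucleolus from proteins needed in matched amounts. Ribosomal protein mRNAs begin with a run of pyrimidines, the 5' terminal oligopyrimidine (TOP) motif, through which mTOR and LARP1 control their translation. The genes are also among the most copied in the mouse genome: reverse-transcribed mRNAs have left many processed pseudogenes, some with the same coding sequence as the gene.

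Start sites were searched for such a run of pyrimidines, which was commoner among the members examined than among all genes. RefSeq start sites (GRCm38.p6) were matched by symbol for 59 of 84 members. An unbroken run of at least 8 bases of C or T, on the strand of the gene and within 20 bases either side of the start, was found in 30 of 59 members (50.8%) and in 18.4% of 27025 genes. On the other strand the shares were 8.47% and 20.2%. The motif CTTTCC, which can lie inside such a run, was found on the strand of the gene in 10 of 59 members (16.9%) and in 2.3% of all genes, and on the other strand in 0 members and 2.03% of all genes. The sequences below give 10 bases before and 15 from the start, with the longest C or T run of at least 5 bases in capitals. Rps6, Rpl28, Rpl38, Rps27, Rpl15 and Rplp2 are hand-picked examples with long runs. They do not stand for the 59 members, of which 30 had a run of at least 8 bases. Rpl22l1, Rps27l and Rpl7l1 are the paralogues whose values are set apart further on.
Rps6 (chr4:86857353-86857377, minus strand): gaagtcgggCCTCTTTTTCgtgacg
Rpl28 (chr7:4792955-4792979, plus strand): tctcgtgTCTCTCTTTCCgtctccg
Rpl38 (chr11:114668570-114668594, plus strand): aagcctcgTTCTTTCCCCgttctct
Rps27 (chr3:90213634-90213658, minus strand): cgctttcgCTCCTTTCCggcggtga
Rpl15 (chr14:18270972-18270996, minus strand): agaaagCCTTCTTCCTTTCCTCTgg
Rplp2 (chr7:141447641-141447665, plus strand): cagcgTCTTCCTTTCgccgccggac
Rpl22l1 (chr3:28805498-28805522, plus strand): gcgcaagcccgTTCTCTTCCCacgg
Rps27l (chr9:66946076-66946100, plus strand): CCTCCCCgccgcctctatcccggaa
Rpl7l1 (chr17:46782642-46782666, minus strand): gctgcgcaagcgcagtagctgaagc
In the bases shown the run reached 17 bases in Rpl15 and 9 to 11 in the other 5 picked examples and in Rpl22l1, against 7 in Rps27l and 2 in Rpl7l1. The Rps27l run opens at the first base shown, so it may be longer, and it ends before the start.

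The second feature concerns where the counts lie. Pseudogene transcripts of GENCODE M21 (GRCm38) were compared with all protein-coding transcripts, and 751 pseudogene rows were most like a cytosolic ribosomal protein gene, 5 of them members by symbol. Each of the 79 protein-coding members had at least 1 such row. The member row held a median of 13.1% of the counts of the gene and its pseudogene rows together, from 2.20% for Rpl38, a 60S protein, to 99.5% for Rpl8, another 60S protein. The share was under 10% for 30 members and over 50% for 11. Rpl10a, of the L1 stalk, had 1289 counts on its own row and 14090 with its 3 pseudogene rows, of which Rpl10a-ps1 alone held 12471. Reads of a gene and a near-identical copy cannot be told apart in these files, because the sources used here give neither the aligner nor its treatment of such reads.

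The next pair shows how alike a gene and its copy are. Each line holds 41 coding bases, the first base that differs is in capitals, and positions are counted from 1 at the A of the start codon.
Rpl6 (gene chr5:121204481-121209241, plus strand), bases 333 to 373: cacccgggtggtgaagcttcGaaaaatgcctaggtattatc
Gm6136 (copy chr1:86908793-86909683, minus strand), same bases: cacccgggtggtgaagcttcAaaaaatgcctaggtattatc
The first difference was G353A in Gm6136, in a codon that is cga in the gene and caa in the copy, with 4 differences in all over 891 coding bases. Other copies matched throughout the coding sequence: Gm14303 had 0 differences from Rps29 over 171 bases and held 6688 counts, where the Rps29 row held 201. Rps6-ps4 and Rpl10a-ps1 likewise had 0 differences from Rps6 over 750 bases and from Rpl10a over 654, and Rps6-ps4 held 8605 counts against 1107 on the gene row. A member with its pseudogene rows is called a family from here on; sums over families were an alternative added after the values of the member rows were seen.

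**Figure D1:**
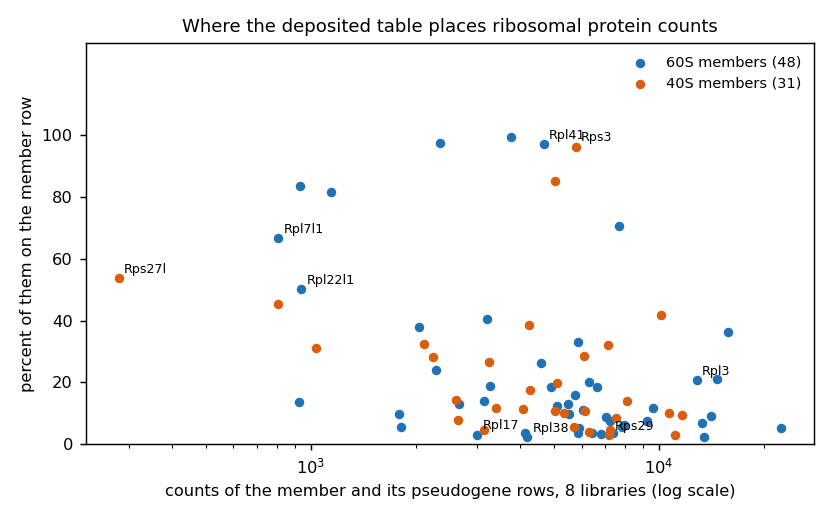
Each point is 1 protein-coding member, with the counts of the gene and its pseudogene rows over the 8 libraries on the x axis (log scale) and the percent of them on the gene's own row on the y axis. Most points lie low, with a median of 13.1%, and Rps3 and Rpl41 are among the few above 80%.

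Library totals ran from 3273258 to 6315782 counts, and all 84 members were among the 16237 genes tested. Levels are counts scaled by library size and TMM factor (CPM). The first white matter library at 4 months stood apart: over all genes it correlated at 0.652 to 0.756 with the other libraries, 8 oligodendrocyte markers reached 60805 CPM in sum (195 to 757 elsewhere), 6 microglia markers 2660 CPM (10148 to 15423 elsewhere), and 38.8% of its counts fell on the ribosomal RNA-like CT010467.1 and AY036118 (6.78% to 20.7% elsewhere). The first grey matter library at 4 months had the highest red blood cell markers, 26017 CPM over 5 genes against 184 to 6924 elsewhere, and the highest neutrophil markers, 4505 CPM over 10 genes against 83.7 to 2339. The 5 choroid plexus and ependyma markers summed to 2101 and 5511 CPM in the white matter libraries at 4 months, 304 and 9371 CPM in those at 21 months and 18.5 to 360 CPM in the grey matter libraries. All 10 neutrophil and all 5 red blood cell markers had counts in every library. The part of these cells in the values below was not tested.

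With TMM scaling the summed level of the members did not separate the groups. Members summed to 3616 and 2153 CPM in the 2 grey matter libraries at 4 months, 2953 and 2154 CPM in white matter at 4 months, 2283 and 2853 CPM in grey matter at 21 months, and 3583 and 2814 CPM in white matter at 21 months. The group means were 2884 ± 1035, 2554 ± 565, 2568 ± 403 and 3198 ± 544 CPM (SD, n = 2), and every pair of groups overlapped. Families summed to 17471 and 9732, 13764 and 9459, 10947 and 13230, and 17471 and 14588 CPM in the same order. On family sums both white matter libraries at 21 months lay above both grey matter libraries of that age and above both white matter libraries at 4 months. On member sums each of those comparisons overlapped with TMM or RLE scaling, but not by library totals. By totals members summed to 3571 and 3231 CPM in white and 2536 and 3123 CPM in grey matter at 21 months. In white matter at 4 months they summed to 1816 and 2418 CPM. A lower level can stand for fewer cells that hold the transcript or for less RNA per cell, which cannot be told apart here.

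**Figure D2:**
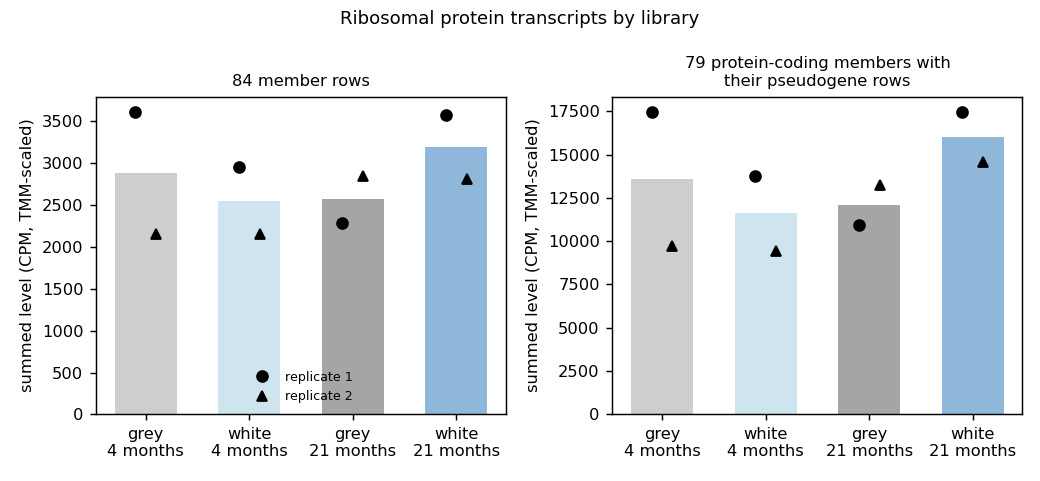
Summed level in CPM after TMM scaling (y axis) of the 84 member rows (left) and of the 79 families (right) in each group (x axis). Bars are means of 2 libraries, circles are replicate 1 and triangles replicate 2; the first grey matter library at 4 months reaches 3616 and 17471 CPM, its partner 2153 and 9732 CPM.

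Members largely moved together between the 2 libraries of a group, on their own rows least so in white matter at 4 months. In grey matter at 4 months 79 of 84 members were higher in replicate 1, and all 79 families were. The median member stood at 4.66 log2 CPM in replicate 1 and 3.96 in replicate 2, while the median of all tested genes differed by less, at 3.68 and 3.604. In white matter at 4 months 52 members and 74 of 79 families were higher in replicate 1. The numbers were 71 and 74 in white matter at 21 months, and 20 and 7 in grey matter at 21 months. In white matter at 4 months the median member stood at 4.18 and 4.06 log2 CPM, and the median of all tested genes differed by more, at 3.83 and 3.64. At 21 months the median member stood at 4.58 and 4.33 in white matter (all tested genes 3.62 and 3.71). In grey matter it stood at 4.20 and 4.36 (3.65 and 3.67). The share of all genes higher in replicate 1 was not counted. In white matter at 4 months the order of the sums turned on the TMM factor. By library totals members summed to 1816 CPM in replicate 1 and 2418 CPM in replicate 2, and families held 0.846% and 1.06% of counts. Replicate numbers carry no order, and these counts describe the spread within groups. In 3 of 4 groups the library with more red blood cell markers also had the higher member sum: 26017 against 1192 CPM of these markers in grey and 6924 against 601 CPM in white matter at 4 months, and 735 against 184 CPM in white matter at 21 months. In grey matter at 21 months the library with more of them (2635 against 718 CPM) had the lower member sum. The library with the larger share of counts on CT010467.1 and AY036118 had the higher TMM-scaled member sum in all 4 groups. These shares were 20.7% against 13.3% in grey and 38.8% against 11.1% in white matter at 4 months. At 21 months they were 14.1% against 13.6% in grey and 14.2% against 6.78% in white matter. The part of either in the spread was not tested.

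**Figure D3:**
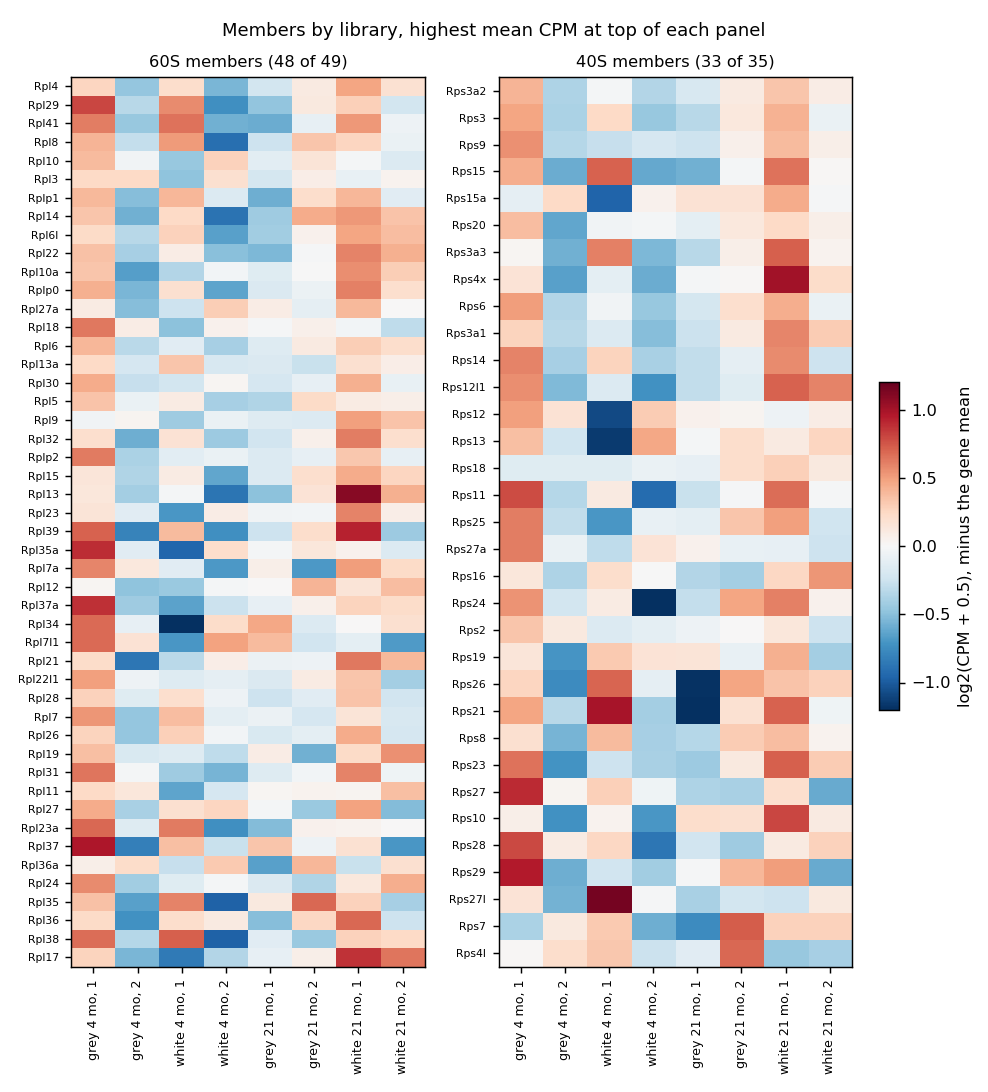
Level of each member (rows, ordered by mean CPM from the top within the 60S and 40S panels) in each library (columns), as log2(CPM + 0.5) minus the mean of that gene over the 8 libraries; a few members are not drawn. The column of the first grey matter library at 4 months is above the mean for most members, as is that of the first white matter library at 21 months.

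Per kilobase of transcript the members spanned a wide range on their own rows. Rpl41, among the smallest proteins known, averaged 252 CPM per kb over the 8 libraries and Rpl29, a 60S protein, 241, followed by Rps3 of the small subunit with 168. At the low end Rpl17 averaged 2.46, Rpl35 3.95 and Rps7 4.80 CPM per kb. Of the counts of their families, the rows of Rpl41 and Rps3 held 97.2% and 96.3%, and that of Rpl17 held 3.03%. As a description over 79 protein-coding members, whose counts share the same libraries, transcript length and log2 mean CPM had a Spearman rho of 0.273.

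The balance of the subunits was close in all libraries. The 60S members summed to 1.37 and 1.36 times the 40S members in grey matter at 4 months, 1.34 and 1.35 times in white matter at 4 months, 1.30 and 1.32 times in grey matter at 21 months and 1.26 and 1.31 times in white matter at 21 months. All 4 libraries of 21 months lay below all 4 of 4 months. This order did not hold for protein-coding members alone. There the second grey matter library at 21 months (1.622) lay above the first white matter library at 4 months (1.620). Nor was it seen on family sums, where the ratio was 1.79 and 1.80, 1.77 and 1.72, 1.87 and 1.78, and 1.80 and 1.92 in the same order of groups.

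The first comparison set white against grey matter at 21 months. No member passed an adjusted p of 0.05 in edgeR's quasi-likelihood test, as for all 16237 genes (0% called). At an unadjusted p under 0.05 lay 0 members, where 1.16% of all genes were higher and 1.18% lower. DESeq2, limma voom with quality weights and limma on the deposited normalised values also called 0 members, where they called 0.227% of 22001, 0.696% of 16237 and 0% of 18448 genes. In limma voom 10 members (9.7% of all genes) had an unadjusted p under 0.05, and in DESeq2 0 (2.24% of all genes). Yet 72 of 84 members had a log2 fold change above 0, against 51.7% of all genes, with a median of 0.30 (all genes 0.02). Both white libraries lay above both grey libraries for 33 members (39.3%, all genes 20.9%) and below them for 3 (3.57%, all genes 19.5%), the last being Rpl18, Rps27a and Rps4l. Of the families, 76 of 79 lay above 0 with a median of 0.41 (all but Rpl7l1, Rpl35 and Rpl22l1), and 49 had no overlap with white higher (62.0%, all genes 20.8%) and 0 with white lower (all genes 19.4%). Families also gave 0 calls, and 0 had an unadjusted p under 0.05 (all genes 2.33%).

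Rows with few counts are set aside in what follows: members are ranked among those whose highest group averaged at least 50 counts, which were 63 in that comparison. The highest of these were Rpl13, a 60S protein, the pseudogene row Rps12l1, and Rps21 and Rps16 of the small subunit. Rpl13 stood at 13.3 and 21.2 CPM in grey and 40.9 and 25.6 CPM in white matter at 21 months. Its white libraries were both above the grey ones, by 0.95 ± 0.493 (SE) on the log2 scale (edgeR adjusted p = 1.00). Rps12l1, whose transcript is identical to Rps12 where aligned, stood at 20.8 and 23.2 CPM in grey and 42.1 and 39.0 CPM in white matter, a difference of 0.88 ± 0.451 (edgeR adjusted p = 1.00). Rps12 itself stood at 23.8 and 23.4 CPM in grey and 22.0 and 24.3 CPM in white matter. The gene row thus overlapped where the copy did not, and the family as a whole differed by 0.61 ± 0.344. Rps16 stood at 11.9 and 11.4 CPM in grey and 18.2 and 22.3 CPM in white matter. Rps21 overlapped, at 2.97 and 11.2 CPM in grey and 16.3 and 9.44 CPM in white matter. At the other end of the 63, Rpl7l1, a paralogue of Rpl7, differed by -0.50 ± 0.543, with 18.2 and 11.7 CPM in grey and 12.8 and 8.44 CPM in white matter. Rpl18, Rps27a and Rpl35a differed by -0.19, -0.16 and -0.11.

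At 21 months the result rested in part on 1 library. Without the first white matter library the member median was 0.09 and 53 of 84 members lay above 0, and without the first grey matter library it was 0.20 with 56 above 0. The family median without these libraries was 0.22 with 60 of 79 above 0 and 0.24 with 74 above 0. Neutrophil markers summed to 2339 and 1977 CPM in the grey and 322 and 83.7 CPM in the white matter libraries of this age, and their part in the result was not tested. With the 21-month libraries alone 14 of 84 members and 11.4% of all genes had an unadjusted p under 0.05, and 0 members and 1.58% of all genes were called. Of the families 32 of 79 had an unadjusted p under 0.05 there, against 11.3% of all genes in that fit, and 0 were called (all genes 1.62%). The lowest adjusted p of a member was 0.0991 and of a family 0.0664.

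At 4 months more members lay below 0 than above. Of 84 members 22 lay above 0 in white against grey matter and 62 below, with a median of -0.22 (50.6% of all genes above 0, median 0.01). edgeR called 0 members and 0% of all genes, and 0 members had an unadjusted p under 0.05, where 6.57% of all genes were higher and 2.33% lower. The other 3 tools again called 0 members, where DESeq2 called 2.64% of all genes and both limma fits 0%. White lay below grey without overlap for 8 members (9.52%, all genes 15.5%) and above it for 2 (2.38%, all genes 13.4%), Rps19 and Rps18, so the share without overlap was under that of all genes. Among families 14 of 79 lay above 0, with a median of -0.23, 2, Rpl5 and Rps15a, had no overlap with white lower (2.53%, all genes 15.6%), and 0 had an unadjusted p under 0.05 (all genes 8.92%). Myeloid markers differed between the regions without overlap: neutrophil markers summed to 4505 and 2155 CPM in grey and 237 and 569 CPM in white matter at 4 months, and the 6 monocyte markers to 370 and 234 CPM and 24.0 and 80.5 CPM. Their part in the result was not tested.

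The lowest of all members at 4 months was Rpl31, a 60S protein, with a difference of -0.89 ± 0.503 (edgeR adjusted p = 0.661). It stood at 12.7 and 7.86 CPM in grey and 5.81 and 5.27 CPM in white matter. Rpl7a, also of the 60S subunit, stood at 24.4 and 17.6 CPM in grey and 14.5 and 9.78 CPM in white matter, a difference of -0.79 ± 0.453. Both were without overlap. Rpl37a and Rpl35a differed by -0.83 and -0.73 with overlap, and the first grey matter library was the high one (27.0 against 10.6 CPM for Rpl37a, 30.0 against 14.4 CPM for Rpl35a). Rps19, mutated in Diamond-Blackfan anaemia, was higher in both white matter libraries, at 12.6 and 6.77 CPM in grey and 14.2 and 12.8 CPM in white matter, by 0.48 ± 0.504 (edgeR adjusted p = 0.825). Rps26, Rps3a3 and Rps21 lay at 0.53, 0.39 and 0.33 with overlap.

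The sign of the 4-month median rested on the first grey matter library. Without it the member median became 0.22 with 56 of 84 members above 0, and without the second grey matter library it was -0.53 with 7 above 0. Without the first white matter library, the one with oligodendrocyte markers, it was -0.34 with 19 above 0, and without the second white matter library -0.11 with 37 above 0, where the median of all genes was -0.18. Families gave a median of 0.24 with 64 of 79 above 0 without the first grey matter library, -0.61 with 2 without the second, -0.51 with 0 without the first white matter library and -0.08 with 37 without the second. Without the second white matter library edgeR called 2 members lower in white matter, Rps12 by -1.50 ± 0.384 (adjusted p = 0.0228) and Rps15a by -1.08 ± 0.338 (adjusted p = 0.0496), in a fit that called 23.6% of all genes. Both are 40S proteins. Rps12 stood at 10.5 CPM in the first and 28.3 CPM in the second white matter library at 4 months. Rps15a stood at 24.0 and 48.9 CPM there, so each was low in the library with the oligodendrocyte markers alone.

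Aging was then followed within each region; these comparisons share libraries with those between regions, so their signs are not independent. In white matter 68 of 84 members lay above 0 at 21 against 4 months, with a median of 0.29 (51.1% of all genes above 0, median 0.02). edgeR called 0 members and 0% of all genes, DESeq2 called 0 members and 1.9% of all genes, both limma fits called 0 members and 0% of all genes, and 2 members, Rpl13 and Rps12l1, had an unadjusted p under 0.05 in edgeR (2.38%, all genes 2.64% in that direction), where 5.47% of all genes and 0 members were lower. The 21-month libraries lay above without overlap for 30 members (35.7%, all genes 19.8%) and below for 1, Rps4l (1.19%, all genes 15.4%). Of the families 69 of 79 lay above 0, with a median of 0.40, 41 without overlap (51.9%, all genes 19.6%). Families gave 0 calls, and 1, Rpl17, had an unadjusted p under 0.05 (all genes 8%).

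Rpl13 stood at 18.5 and 10.03 CPM at 4 months and 40.9 and 25.6 CPM at 21 months in white matter, a difference of 1.22 ± 0.499 (edgeR adjusted p = 0.615). Its family, with 11 pseudogene rows, gave 219.9 and 150.0 CPM and then 348 and 357 CPM, a difference of 0.94 ± 0.416. Rps12l1 stood at 22.9 and 15.3 CPM and then 42.1 and 39.0 CPM, by 1.09 ± 0.455. Rps4x, the X-linked 40S protein, stood at 27.98 and 20.1 CPM and then 61.7 and 35.5 CPM, by 1.02 ± 0.443. Rps23, at the decoding centre, stood at 7.27 and 6.52 CPM and then 14.7 and 10.9 CPM, by 0.89 ± 0.591. In each of these 4 the 2 ages did not overlap, and none passed the adjusted threshold. Rpl7l1 and Rpl7 differed by -0.40 and -0.16, and Rps27a and Rps21 by -0.12 and -0.07, all with overlap.

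Here too single libraries carried weight. Without the first white matter library at 21 months the member median was 0.15 with 51 above 0, and without the first at 4 months it was 0.49 with 67 above 0. The family median was 0.25 with 53 of 79 above 0 without the former, 0.69 with 77 without the latter and 0.23 with 54 without the second white matter library at 4 months, where the median of all genes was 0.20. Without the second at 4 months edgeR called 1 member, Rps15a, higher at 21 months by 1.24 ± 0.340 (adjusted p = 0.0296), in a fit that called 25.1% of all genes.

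In grey matter 24 of 84 members lay above 0 at 21 against 4 months and 60 below, with a median of -0.17 (48.6% of all genes above 0, median -0.02); scaled by library totals the median was 0.01 with 43 above 0, where that of all genes was 0.13. Here edgeR, DESeq2 and both limma fits called 0 members and 0% of all genes, and 0 members had an unadjusted p under 0.05, where 0.45% of all genes were higher and 0.283% lower. The 21-month libraries lay below without overlap for 11 members (13.1%, all genes 17.3%) and above for 2, Rps10 and Rps18 (2.38%, all genes 17.2%). Families gave 4 of 79 above 0 (Rpl13, Rpl17, Rpl14 and Rps18), a median of -0.22 and 1 without overlap, Rpl7l1, lower (1.27%, all genes 17.5%), and 0 at an unadjusted p under 0.05 (all genes 0.717%). Rps27, a zinc-binding 40S protein, stood at 16.4 and 8.78 CPM at 4 months and 6.54 and 6.42 CPM at 21 months, a difference of -0.96 ± 0.533 (edgeR adjusted p = 1.00). Rpl7a differed by -0.65, from 24.4 and 17.6 CPM to 16.8 and 9.77 CPM. Rps21 and Rpl41 differed by -0.62 and -0.50 with overlap, and at the other end of the 66 members with at least 50 counts Rpl12, Rps19, Rps18 and Rps4x lay at 0.43, 0.27, 0.22 and 0.18. Without the first grey matter library at 4 months the median became 0.28 with 64 members above 0, and without the second it was -0.46 with 7 above 0. Without the first grey matter library at 21 months it was -0.02 with 41 above 0, and without the second -0.32 with 10. Families gave 0.30 with 71 of 79 above 0 without the first grey matter library at 4 months, -0.57 with 0 without the second and -0.07 with 27 without the first at 21 months.

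The difference between the aging changes of the 2 regions was tested directly. It lay above 0, toward a more positive change in white matter, for 76 of 84 members, with a median of 0.51 (49.8% of all genes above 0, median -0.01), and for 78 of 79 families, with a median of 0.59. All 48 families of the 60S subunit and 30 of 31 of the 40S subunit lay above 0, Rps27l being the one below. edgeR called 0 members, 0 families and 0% of all genes, 0 members had an unadjusted p under 0.05 (all genes 0.733% higher and 2.07% lower), and the other 3 tools called 0 members, where DESeq2 called 0.127% of all genes and both limma fits 0%. Of the 67 members with at least 50 counts in a group Rpl7a had the highest value, 1.44 ± 0.638 (edgeR adjusted p = 1.00), followed by Rps12l1 at 1.43 ± 0.638, Rpl31 at 1.31 ± 0.706 and Rpl13 at 1.24 ± 0.698. At the low end of the 67 Rps19 stood at -0.45, Rps26 at -0.06, Rpl7l1 at -0.05 and Rpl27a at -0.01. Without the first grey matter library at 4 months the median was 0.09 with 54 of 84 members above 0, and for families 0.14 with 48 of 79. Without the second it was 0.85, and for families 0.96. Without the first white matter library at 4 months it was 0.66, and for families 0.90, and without the first at 21 months 0.27 and 0.42.

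**Figure D4:**
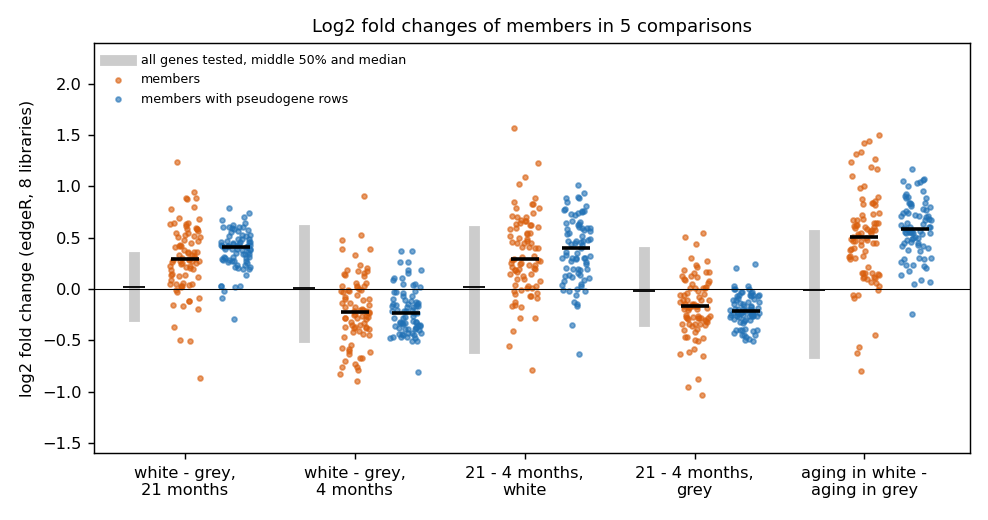
Log2 fold changes from edgeR (y axis) in the 5 comparisons (x axis): grey bars span the middle 50% of all tested genes, orange points are the 84 members and blue points the 79 families, with black dashes at the medians. Family points cluster more tightly than member points. Their medians sit above 0 except in white against grey matter at 4 months and in grey matter aging.

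Summing the copies narrowed the spread among genes. At 21 months the central 50% of the member values spanned 0.42 on the log2 scale and that of the families 0.21, in white matter aging 0.54 and 0.47, and in grey matter aging 0.34 and 0.18. Copies lay on the same sides of 0 as the genes: of the tested rows with "-ps" in a ribosomal protein name 117 lay above 0 and 8 below in white against grey matter at 21 months (median 0.47), 38 at 4 months (-0.17), 111 in white matter aging (0.53), 25 in grey matter aging (-0.20) and 120 in the difference between agings (0.66), with 0 called. Of all genes 51.7%, 50.6%, 51.1%, 48.6% and 49.8% lay above 0 in the same order. Copies may share reads with the genes, and those matched to a member count in its family. Their signs are therefore not separate support for those of the genes.

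By role, the stalk proteins Rplp0, Rplp1 and Rplp2, which recruit elongation factors, differed between white and grey matter at 21 months by 0.55, 0.29 and 0.26. Rplp0 stood at 30.9 and 33.2 CPM in grey and 53.5 and 40.2 CPM in white matter, without overlap. Rps6, the target of S6 kinase below mTOR, stood at 26.5 and 35.4 CPM in grey and 41.9 and 29.05 CPM in white matter at 21 months, which overlapped. Rpl5 and Rpl11, which bind 5S ribosomal RNA and can hold Mdm2 when not assembled, differed by 0.12 and 0.19 on their own rows and by 0.60 and 0.49 as families. Near the peptidyl transferase centre, Rpl3 and Rpl10 differed by 0.04 and -0.11. Rpl10a, of the L1 stalk, stood at 32.3 and 35.7 CPM in grey and 53.0 and 44.0 CPM in white matter at 21 months. It differed by 0.51 ± 0.403. Rpl22 stood at 24.8 and 35.7 CPM and 54.9 and 48.7 CPM, by 0.78 ± 0.410. Rpl13a, often used as a reference gene, stood at 23.6 and 22.05 CPM and 30.5 and 28.3 CPM, by 0.37 ± 0.359. The small proteins Rpl38, Rpl39 and Rpl41 differed by 0.64, 0.42 and 0.59. Rps27 and Rps27a, the latter made as a fusion with ubiquitin, differed by 0.25 and -0.16. None of these passed the test in any of the 5 comparisons.

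**Figure D5:**
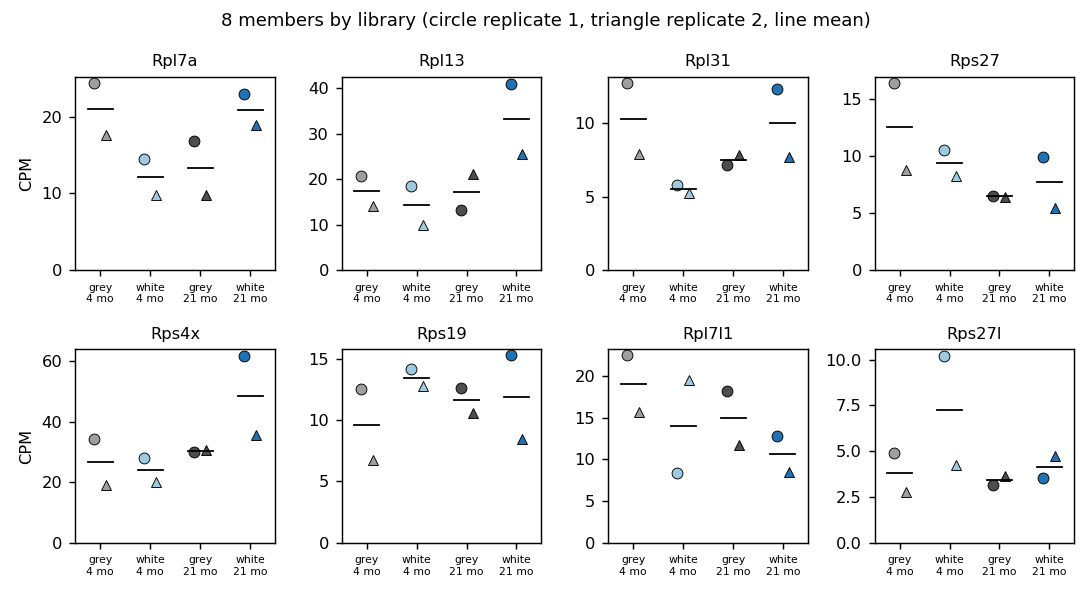
CPM of 8 members (y axes start at 0) in the 4 groups (x axes), with replicate 1 as circles, replicate 2 as triangles and group means as lines. Rpl7a and Rpl31 are low in white matter at 4 months, Rpl13 and Rps4x are highest in white matter at 21 months, and Rpl7l1 and Rps27l lack that pattern.

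The paralogues are given apart. Rpl7l1, whose start site holds no C or T run of at least 5 bases, was uneven in white matter at 4 months. It stood at 22.5 and 15.7 CPM in grey and 8.36 and 19.6 CPM in white matter at that age. On its own row its differences were below 0 in all 5 comparisons, also with RLE or library totals. The difference between agings was near 0, at -0.05 ± 0.760, and lay above 0 for its family, at 0.14 ± 0.664. Rps27l, a paralogue of Rps27 induced by p53, stood at 4.88 and 2.74 CPM in grey and 10.2 and 4.26 CPM in white matter at 4 months, 3.17 and 3.63 CPM in grey and 3.55 and 4.72 CPM in white matter at 21 months. Its white matter aging value was -0.79 ± 0.666 and its difference between agings -0.62, on the other side of 0 from the set's median, and the first white matter library at 4 months, with the oligodendrocyte markers, held its highest value. Rpl22l1, a paralogue of Rpl22, differed by 0.05 between white and grey matter at 21 months. Rps4l, at 2.13 to 5.30 CPM, differed by -0.87 there. SEs of these 4 rows ran from 0.451 to 0.677 in that comparison, and no difference between a paralogue and the set was tested.

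Other genes of the translation machinery were taken from lists of known members. No gene of any list passed edgeR's adjusted p of 0.05 in any comparison. Of the 5 subunits that the symbol pattern leaves out, among them Rpsa and Rack1, 5 of 5 lay above 0 in white against grey matter at 21 months (median 0.60), 3 at 4 months, 5 in white matter aging (0.40), 2 in grey matter aging and 5 in the difference between agings (0.49). Rack1, a 40S scaffold, stood at 141 and 143 CPM in grey and 194 and 173 CPM in white matter at 21 months, without overlap. Of 26 other TOP mRNAs 21 lay above 0 at 21 months (median 0.43), 18 at 4 months (0.10), 16 in white matter aging (0.15), 5 in grey matter aging (-0.24) and 21 in the difference (0.28). Of 10 elongation factors 9, 6, 7, 3 and 9 lay above 0 in the same order, with medians of 0.36, 0.11, 0.18, -0.18 and 0.32. Eef1a1, which brings aminoacyl-tRNA to the ribosome, stood at 347 and 428 CPM in grey and 724 and 566 CPM in white matter at 21 months, by 0.74 ± 0.457.

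At 4 months the outside subunits, other TOP mRNAs and elongation factors had medians above 0 (0.005, 0.10 and 0.11), where that of the members was -0.22. The remaining lists did not follow the members throughout either. Initiation factors lay above 0 for 26 of 37 at 21 months (median 0.25), 23 at 4 months (0.11), 10 in white matter aging (-0.22), 4 in grey matter aging (-0.29) and 22 in the difference (0.03). Mitochondrial ribosomal proteins, which serve the separate ribosome of mitochondria, lay above 0 for 42 of 76 at 21 months (0.03), 59 at 4 months (0.56), 9 in white matter aging (-0.72), 21 in grey matter aging (-0.21) and 21 in the difference (-0.44). They summed to 1446 CPM in the first white matter library at 4 months and 673 to 982 CPM in the others. Ribosome assembly factors lay on the same sides as the members except in white matter aging: above 0 were 26 of 39 at 21 months (0.14), 13 at 4 months (-0.16), 18 in white matter aging (-0.07), 7 in grey matter aging (-0.31) and 27 in the difference (0.18). In the same order of comparisons RNA polymerase I factors lay above 0 for 8, 5, 6, 3 and 6 of 13 (medians 0.02, -0.14, -0.05, -0.32 and -0.02), ribosome quality control genes for 8, 6, 7, 5 and 8 of 14 (0.09, -0.07, -0.02, -0.02 and 0.31), and regulators of mTOR and TOP mRNAs for 10, 11, 11, 8 and 13 of 22 (-0.01, -0.01, -0.04, -0.12 and 0.08). Larp1, which binds the TOP motif, stood at 140 and 152 CPM in grey and 155 and 157 CPM in white matter at 21 months, a difference of 0.09.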

How the data were processed

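Per the labels' protocols, polyadenylated RNA of CD11b-selected cells was made into Ion Proton libraries, 2 in each of 4 groups. The authors deposited a table of estimated counts per gene for 51810 symbols, with 17.9% to 19.7% of each library's nonzero values not whole, and a normalised signal for 18448 of them. Per the submitters' processing notes, Partek and DESeq2 are named, with no role. Which aligner, build and annotation they used, and whether strand was, is not given in the sources used here. A table of sample annotations was not used.

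Estimated counts were rounded to whole numbers. Genes were kept with filterByExpr (16237), scaled by TMM and fitted as 4 group means over all 8 libraries with the robust quasi-likelihood model of edgeR 4.0.16 in R 4.3.3 (4 residual degrees of freedom). Calls were made at a Benjamini-Hochberg adjusted p under 0.05 over all genes. Standard errors come from the F statistic. For 2 libraries against 2 the smallest two-sided exact permutation p is 0.333, so single values have no such test. Alternatives were DESeq2 1.42.0, limma 3.58.1 with voom quality weights or on log2(deposited signal + 1), RLE scaling, library totals, removal of CT010467.1 and AY036118, a replicate block, the 4 libraries compared alone, and each library left out. Member sums carry totals of 8127 to 20730 counts per library.

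Of the symbols, 47624 were in GENCODE M21. Pseudogene transcripts with at least 10 counts (3232) were aligned to protein-coding transcripts with blastn 2.17.0 (at least 80% identity over at least 50% of the pseudogene) and given to the best match, which 3028 had. Family fits tested 15910 genes. In 29 members at least 1 library's count was not whole. The fit was tested on simulated counts, with a dispersion far under that of these data (0.257) and changes larger than those of most members. How well it finds changes of the size seen here was therefore not tested.

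Named members are those called, the 4 highest and 4 lowest per comparison whose highest group averaged at least 50 counts, and a list of well-known subunits and paralogues; others are named as examples after their values were seen (Rps12, Rps15a, Rpl17, Rpl9, Rpl35, Rps10, Rack1, Larp1, families and copies). Members, gene lists and marker lists were chosen with earlier results of these data known. Some members were fitted and counted but are not reported by name here.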

Additional observations from a re-analysis of the deposited data

Results flagged for a closer look

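On their own rows 4 members moved one way in white matter and the other way in grey matter, without overlap of the libraries. All 4 lay higher at 21 months in white and lower in grey matter without overlap (4.76% of members, all genes 1.93%), and 0 members had the reverse (all genes 1.68%). Between 4 and 21 months Rpl7a differed by 0.79 in white matter and -0.65 in grey matter on the log2 scale, Rpl31 by 0.85 and -0.46, Rpl9 by 0.67 and -0.16, and Rpl11 by 0.65 and -0.17. Between white and grey matter, Rpl7a differed by 0.65 at 21 months and -0.79 at 4 months and Rpl9 by 0.59 and -0.24, again without overlap (2.38% of members, all genes 2.16%). The opposite moves themselves were picked without a test. The age by region term of edgeR's quasi-likelihood model gives 1.44 ± 0.638 for Rpl7a, 1.31 ± 0.706 for Rpl31, 0.83 ± 0.465 for Rpl9 and 0.82 ± 0.651 for Rpl11, each with an adjusted p of 1.00. Rpl9 stood at 24.4 and 25.8 CPM in grey and 18.5 and 23.8 CPM in white matter at 4 months, and at 22.6 and 22.3 CPM in grey and 35.5 and 32.0 CPM in white matter at 21 months. The 2 grey matter libraries at 4 months lay close for Rpl9 and for Rpl11 (9.07 and 8.41 CPM) and apart for Rpl31 (12.7 and 7.86 CPM) and Rpl7a (24.4 and 17.6 CPM). The member rows of Rpl31, Rpl11, Rpl7a and Rpl9 held 2.22%, 3.75%, 8.64% and 18.4% of their family counts. With its 41 pseudogene rows the Rpl7a family differed by -0.03 in grey matter aging. The Rpl31, Rpl11 and Rpl9 families differed by -0.14, -0.07 and -0.0006. All 4 families overlapped between the ages in grey matter, so the opposite moves without overlap were not seen once copies were summed. The Rpl7a and Rpl9 families also overlapped between the regions at 4 months.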

How the results depend on the processing

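In the alternatives run, family sums among them, 189 recomputed counts, medians and summed levels stayed within their limits and 11 moved. The main fit called 0 members, so there was no call to reverse. A median counted as moved only from a shift of 0.274, the pooled SD between replicates of the median log2 CPM of members. That limit is wide beside most member medians: at 21 months a fall from 0.30 to 0.09 without the first white matter library stayed within it. Leaving out 1 library at a time, the number of members called ran from 0 to 2 for white against grey matter at 4 months and from 0 to 1 for white matter aging, and was 0 in the other comparisons. The member median ran from 0.09 to 0.47 for white against grey matter at 21 months, -0.53 to 0.22 at 4 months, 0.15 to 0.49 in white matter aging, -0.46 to 0.28 in grey matter aging and 0.093 to 0.85 for the difference between agings. Scaling by library totals moved the median of all genes to -0.18, 0.29, 0.13 and 0.14 in the last 4 comparisons, and the member medians to -0.46, 0.65, 0.01 (43 of 84 above 0) and 0.67. Relative to all genes the grey matter aging median thus stayed below. With CT010467.1 and AY036118 left out of the totals, the summed level was 3882 CPM in white and 3108 CPM in grey matter at 21 months. Protein-coding members alone gave medians of 0.29, -0.22, 0.29, -0.17 and 0.52. Families were added after the data were seen. The cause of these moves was not tested.

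Replicate numbers were not taken to pair the samples, since the labels give them no shared animal, litter or day. Deviations of same-numbered libraries correlated at -0.14 to 0.42 over all genes and -0.37 to 0.45 over members, not above 0.1 in every pair of groups; the highest over all genes was between the 4-month groups. With a replicate block the medians were 0.26, -0.19, 0.32, -0.11 and 0.45, with 0 members called in all 5 comparisons.

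With 2 libraries in a group, several with transcripts of oligodendrocytes, red blood cells or choroid plexus, the spread between libraries is wide (common dispersion 0.257), and members with few counts, such as Rpl17 (91 counts over all libraries) and Rpl38 (92), have SEs above 0.7. Gene and copy rows share reads to an extent that cannot be told from the files.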
